A study of Homo sapiens with 12 samples.

Results

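JAK, STAT and gp130 receptor genes were followed in 2 head and neck squamous cell carcinoma (HNSCC) lines before and after selection for resistance to inhibitors of the ERBB receptors. The genes are the receptor chains IL6ST and OSMR, the kinases JAK1 and TYK2, the transcription factors STAT3, STAT5A, STAT5B and STAT6, and the inhibitors SOCS2 and SOCS3. They were chosen by name and matched by gene symbol to the Ensembl identifiers of the count files, and they make up 10 of the 58051 genes counted. FaDu cells come from a hypopharyngeal tumor and Cal27 cells from a tongue tumor, and the labels give both lines as wild type in genotype. Each line was analysed as parental cells, as afatinib-resistant cells (AfaR) and as erlotinib-resistant cells (ErlR), with 2 biological replicates of each, so that 12 libraries fall into 6 groups. Afatinib blocks the ERBB family irreversibly, whereas erlotinib is a reversible inhibitor of EGFR. By the study's methods, resistance was selected by stepwise increases of drug, and the resistant cells were grown without drug for a day before use, so each resistant group is 1 selected population and the replicates measure the spread within it.

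Cytokines of the interleukin-6 family signal through gp130, the shared receptor chain encoded by IL6ST. Oncostatin M binds a complex of gp130 and OSMR, while interleukin-6 and leukemia inhibitory factor use gp130 together with IL6R or LIFR. The receptors carry JAK kinases, which phosphorylate STAT proteins once a cytokine has bound, and the STATs then enter the nucleus and drive transcription. SOCS genes are themselves STAT targets, and their proteins shut the pathway down again. In squamous carcinomas this route to STAT3 and STAT5 runs beside the one from EGFR, which also activates both factors. The libraries measure mRNA and hold no information on phosphorylation.

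The libraries held 16334937 to 23399259 reads assigned to genes (median 16584450), and the ERCC spike-ins, synthetic RNAs added to every sample, took 3.86% to 5.82% of all counts. All libraries carry 1 batch label, but depth and spike-in share fell into separate ranges. FaDu parental and FaDu AfaR libraries held 20156109 to 23399259 reads on genes and 5.64% to 5.82% spike-ins. FaDu ErlR and all Cal27 libraries held 16334937 to 16689855 reads and 3.86% to 4.6% spike-ins. The split runs between FaDu ErlR and FaDu parental libraries and between the parental lines, where it cannot be told apart from the groups. Through FaDu ErlR it also enters the erlotinib interaction. Levels are given as CPM, library-scaled read counts after TMM normalization, and levels of different genes are compared only as CPM per kilobase of exon. A difference passed when edgeR's quasi-likelihood test gave a Benjamini-Hochberg adjusted p under 0.05 over all genes tested, and all 10 genes were tested in every comparison. Scaling on the spike-ins instead of TMM moved the median log2 value of all genes. The shift was 0.18 for FaDu AfaR, 0.48 for FaDu ErlR and 0.59 between the parental lines. It was 0.17 in the afatinib interaction and 0.46 in the erlotinib interaction. Values below are from TMM unless another setting is named, and values with spike-in scaling include this shift. The 11 squamous epithelial markers were detected in every group, with summed levels of 2428 to 19180 CPM, and the 5 leukocyte markers summed to 3.95 to 6.75 CPM. In bulk RNA, fewer cells expressing a gene and less RNA per cell cannot be told apart.

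STAT5A (ENSG00000126561, chr17:42287547-42311943, GRCh38) lies on chromosome 17 between STAT5B (ENSG00000173757, chr17:42199168-42276707) and STAT3 (ENSG00000168610, chr17:42313324-42388568). STAT5A and STAT5B are close copies of each other, so their sequences decide how well reads can be assigned. The longest run of identical bases in their coding sequences measured 429 bases, which is 18.0% of the STAT5A and 18.2% of the STAT5B coding sequence of the canonical transcripts in GENCODE. Exon 7 lies wholly within this run and has 152 bases, at chr17:42300130-42300281 on the plus strand for STAT5A and at chr17:42219312-42219463 on the minus strand for STAT5B. It is shown because a read that falls inside it fits both genes.
STAT5A and STAT5B exon 7: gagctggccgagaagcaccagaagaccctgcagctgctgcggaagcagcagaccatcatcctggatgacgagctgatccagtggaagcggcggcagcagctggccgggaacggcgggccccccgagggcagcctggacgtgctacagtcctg
Over all annotated transcripts, 10.5% of the distinct 31-base words of STAT5A also occur in STAT5B, and 5.51% of those of STAT5B occur in STAT5A (11.2% in any other gene). How reads that fit both genes were counted is not given in the sources used here, so both counts are uncertain. These shares do not give the size of the error, since STAT5B had the higher level and its reads could weigh more on STAT5A than the reverse.

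The promoters were searched for the symmetric letters that STAT proteins bind, TTCNNNGAA and, as preferred by STAT6, the same ends with 1 more base between them. Both words read the same on either strand. RefSeq promoter windows (GRCh38.p14, 250 bases before to 50 after a start) were at hand for 9 of the 10 genes, in 14 windows, with none for SOCS2. Of all 35116 promoter windows, 7.66% hold the first word and 6.44% the second. Among the 14 windows, 1 STAT5A window held the second word, TTCCTCTGAA, 229 bases before the start, and the first word was in none. The first 200 bases of this window and of the window of IL6ST, the gene with the largest rise after selection, are printed 5′ to 3′, with the match in capitals. They end 51 bases before the start and lie at chr17:42287189-42287388 on the plus strand and at chr5:55995014-55995213 on the minus strand.
STAT5A upstream: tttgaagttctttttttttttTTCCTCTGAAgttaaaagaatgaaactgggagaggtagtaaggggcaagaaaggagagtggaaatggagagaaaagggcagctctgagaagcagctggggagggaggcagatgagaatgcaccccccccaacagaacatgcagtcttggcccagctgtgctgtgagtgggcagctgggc
IL6ST upstream: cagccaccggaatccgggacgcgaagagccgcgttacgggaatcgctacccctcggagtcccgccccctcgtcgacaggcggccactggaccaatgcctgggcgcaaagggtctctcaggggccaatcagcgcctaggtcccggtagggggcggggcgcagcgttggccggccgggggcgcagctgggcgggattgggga
The STAT5A stretch has 50% G and C and the IL6ST stretch 72.0%. A missing word says only that these letters are not in the window.

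The parental lines were compared first, to see how the pathway stood before selection. Cal27 parental cells had more mRNA than FaDu parental cells for both receptor chains and for all 4 STATs, as well as for SOCS3, and less for SOCS2, while the kinases did not pass with TMM scaling. That makes 7 genes higher and 1 lower, where 28.7% of all tested genes were higher and 26.8% lower. With a log2 fold change over 1 in size required as well, 5 of the 10 genes and 31.6% of all tested genes passed. The median log2 difference was 0.83 over the 10 genes and 0.04 over all genes. The lines differ in tissue of origin, donor and, by the study's methods, culture medium (EMEM for FaDu, DMEM with GlutaMAX for Cal27). These cannot be told apart from the line.

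STAT5A, a STAT known from growth hormone and prolactin signaling, showed the largest difference between the parental lines. It was at 4.47 and 3.64 CPM in the FaDu parental libraries and at 29.9 and 27.2 CPM in the Cal27 parental libraries. The 2 lines do not overlap, and the log2 difference of Cal27 over FaDu was 2.82 (SE 0.26, adjusted p = 2.55e-06). Its neighbour STAT5B, which shares most of its protein sequence, differed less, with 28.5 and 23.8 CPM in FaDu and 44.4 and 45.8 CPM in Cal27 (log2 difference 0.79, SE 0.13, adjusted p = 0.000241). Within each library the ratio of STAT5A to STAT5B per length was therefore unlike, at 0.175 and 0.172 in FaDu parental and 0.755 and 0.667 in Cal27 parental cells. STAT3, the main STAT downstream of gp130, was the most abundant of the 10 genes per length in both parental lines, with 23.0 ± 0.832 CPM per kb in FaDu and 32.9 ± 0.896 in Cal27 (SD, n = 2). Its log2 difference was 0.51 (SE 0.11, adjusted p = 0.00218). STAT6, the STAT of interleukin-4 and interleukin-13, was higher in Cal27 as well (log2 difference 0.88, SE 0.16, adjusted p = 0.000521).

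IL6ST (ENSG00000134352, chr5:55935095-55994993) was at 35.3 and 36.6 CPM in FaDu parental and at 112 and 133 CPM in Cal27 parental cells. It was 3.40-fold higher in Cal27 (log2 difference 1.77, SE 0.13, adjusted p = 4.76e-07). OSMR (ENSG00000145623, chr5:38845858-38945596), which pairs with gp130 for oncostatin M, was at 86.5 and 90.6 CPM in FaDu and at 188 and 250 CPM in Cal27 (log2 difference 1.31, SE 0.21, adjusted p = 0.000204). The 2 Cal27 parental libraries are thus apart from the FaDu libraries for both chains, although they differ from each other for OSMR. SOCS3 (ENSG00000184557, chr17:78356778-78360077), the inhibitor that binds gp130 itself, was higher in Cal27 by 1.55 on the log2 scale (SE 0.27, adjusted p = 0.000415), and SOCS2 (ENSG00000120833, chr12:93569814-93583487), which restrains growth hormone signaling through STAT5, was lower, with a log2 difference of -1.08 (SE 0.17, adjusted p = 0.000175). JAK1 (0.07) and TYK2 (-0.12) had log2 differences near 0 with adjusted p-values of 0.635 and 0.411. With spike-in scaling TYK2 turned to 0.46 (adjusted p = 0.0187) and JAK1 came to 0.66 (adjusted p = 0.000700), so that all 10 genes passed. That scaling called 9662 genes over the whole table and moved the median of all genes by 0.59.

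**Figure D1:**
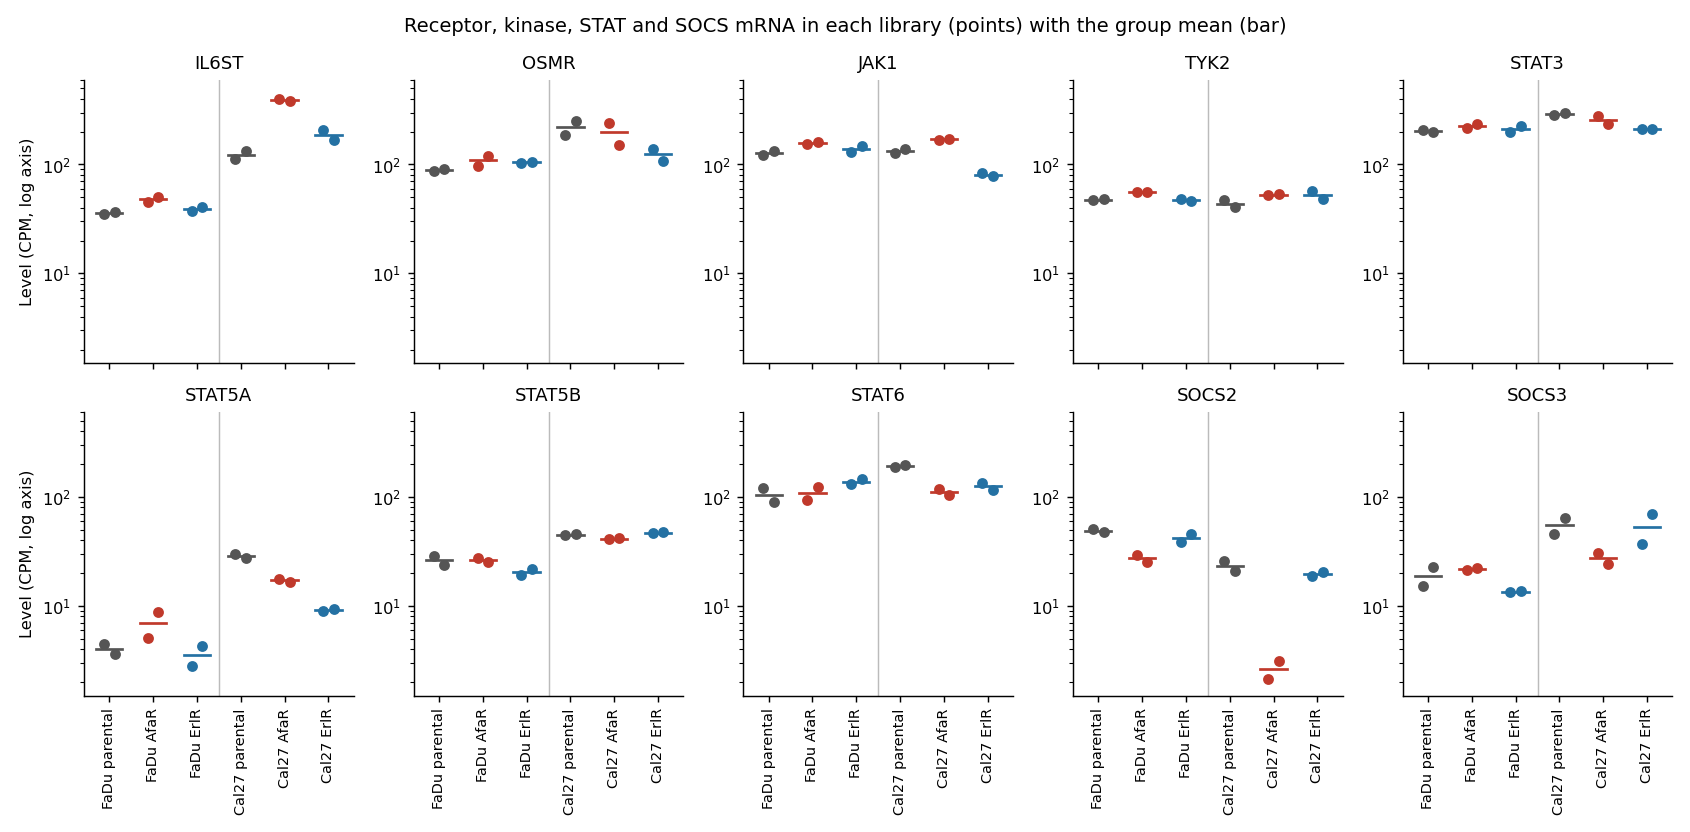
Level of each gene in CPM (log axis) in the 2 libraries of each of the 6 groups (points), with bars at the group means; FaDu groups stand left of the grey line and Cal27 groups right. IL6ST climbs to 385 to 395 CPM in Cal27 AfaR, SOCS2 drops to 2.11 to 3.13 CPM there, and TYK2 stays between 40.7 and 57.0 CPM in all 12 libraries.

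In Cal27 AfaR, 6 of the 10 genes differed from parental cells. The receptor chain IL6ST rose and JAK1 rose slightly, while SOCS2, SOCS3, STAT5A and STAT6 fell. These 2 higher and 4 lower genes stand against 19.5% of all tested genes higher and 18.2% lower in this comparison. With the limit on fold change, 3 of the 10 passed (IL6ST, SOCS2 and SOCS3), against 19.6% of all tested genes. The median log2 fold change was -0.15 over the 10 genes and 0.00 over all genes.

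IL6ST went from 112 and 133 CPM in Cal27 parental to 395 and 385 CPM in Cal27 AfaR. The resistant libraries differ little from each other and lie far above the parental ones, 3.19-fold higher on average (log2 fold change 1.67, SE 0.15, adjusted p = 5.11e-05). Per length, IL6ST moved from the sixth place among the 10 genes (13.2 ± 1.64 CPM per kb, SD, n = 2) to the first (41.9 ± 0.803), above STAT3 (29.4 ± 3.49). Its partner OSMR was at 188 and 250 CPM in parental and at 243 and 152 CPM in AfaR libraries, which overlap (log2 fold change -0.15, SE 0.23, adjusted p = 0.646, with 0.07 without parental replicate 2 and 0.16 without AfaR replicate 2). The ratio of IL6ST to OSMR per length rose from 0.458 and 0.410 in the parental libraries to 1.26 and 1.96. An antisense gene without a symbol, ENSG00000262211, overlaps 797 exon bases of IL6ST and had 0 counts in all libraries.

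SOCS2 had the largest change of the 10 genes in any resistant group. It was at 25.8 and 20.7 CPM in Cal27 parental cells (443 and 355 reads) and at 2.11 and 3.13 CPM in Cal27 AfaR (39 and 54 reads), 8.87-fold lower (log2 fold change -3.15, SE 0.24, adjusted p = 1.85e-05). The groups are far apart, and the fall passed under every alternative setting, with log2 fold changes of -3.44 to -2.89. SOCS2-AS1, an antisense RNA whose exons share 277 bases (4.09% of the exon length) with SOCS2 on the opposite strand, fell too (log2 fold change -3.33, adjusted p = 0.00182), on 178 reads over all 12 libraries. Whether counting used the strand is not given in the sources used here, so in shared bases the 2 genes cannot be told apart, which also holds for 128 bases of STAT6 (with NAB2 and LRP1) and 229 bases of OSMR (with RICTOR). SOCS3 fell from 45.8 and 64.5 to 30.7 and 24.3 CPM (log2 fold change -1.003, SE 0.28, adjusted p = 0.0204). This call was lost without parental replicate 2 (-0.73, adjusted p = 0.0753), without AfaR replicate 1 (-1.19, adjusted p = 0.0686) and without AfaR replicate 2 (-0.83, adjusted p = 0.135).

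Of the STATs, STAT6 (ENSG00000166888, chr12:57095408-57132139) fell from 189 and 197 to 119 and 103 CPM in Cal27 AfaR (log2 fold change -0.80, SE 0.13, adjusted p = 0.00173). STAT5A fell from 29.9 and 27.2 to 17.6 and 16.7 CPM (log2 fold change -0.74, SE 0.16, adjusted p = 0.00576). Both parental libraries lie above both AfaR libraries for each of these genes, and both calls held under every alternative fit. STAT3 (log2 fold change -0.16) and STAT5B (-0.13) did not pass, with adjusted p-values of 0.366 and 0.443. JAK1 (ENSG00000162434, chr1:64833229-64966504), the kinase that gp130 complexes depend on, was at 127 and 139 CPM before and 168 and 172 CPM after selection (log2 fold change 0.35, SE 0.12, adjusted p = 0.0451). Its libraries do not overlap, but the call was narrow and was lost with DESeq2 (adjusted p = 0.0552), with spike-in scaling (0.0736), with a replicate block (0.0818), without a filter on low counts (0.0911), with only the compared libraries in the fit (0.0590) and without any 1 of the 6 Cal27 libraries (0.0605 to 0.287).

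Cal27 AfaR libraries also differed in their epithelial markers, and these values move with the changes above. The 11 squamous markers summed to 2428 to 2470 CPM, against 6157 to 8029 CPM in Cal27 parental and 6362 to 6607 CPM in Cal27 ErlR. The 5 fibroblast markers summed to 283 to 289 CPM, against 29.0 to 40.0 CPM in Cal27 parental cells, and COL1A1 took most of this, with a mean of 269 CPM against 30.4 CPM. PDGFRB was at means of 12.3 against 1.63 CPM and COL1A2 at 4.11 against 2.19 CPM, while DCN (0.0580 CPM) and PDGFRA (0.0270 CPM) were near 0 in Cal27 AfaR. The 4 endothelial markers summed to 30.1 to 37.4 CPM in Cal27 AfaR and to 31.7 to 32.7 CPM in Cal27 parental cells, nearly all of it CDH5. The part of these markers in the changes of the 10 genes was not tested.

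**Figure D2:**
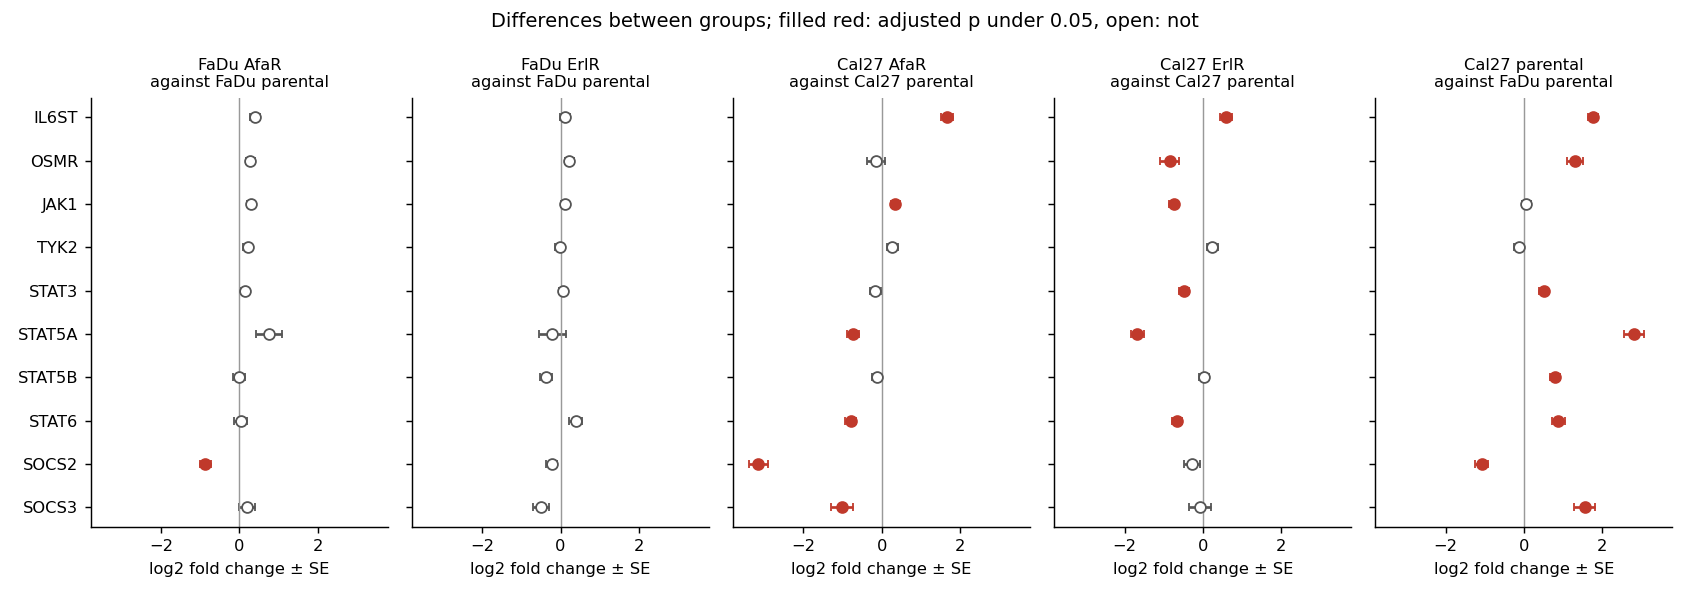
Log2 fold change with its standard error for each gene in the 4 comparisons of resistant with parental cells and between the parental lines; filled red points passed at an adjusted p under 0.05 and open points did not. FaDu resistant cells show 1 filled point, SOCS2 in AfaR, whereas 6 genes passed in each Cal27 comparison.

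In Cal27 ErlR, the kinase JAK1, the receptor chain OSMR and 3 of the 4 STATs (STAT5A, STAT6 and STAT3) fell, and IL6ST rose. These are 5 genes lower and 1 higher, where 15.3% of all tested genes were lower and 12.3% higher. Only STAT5A also had a log2 fold change over 1 in size, against 13.5% of all tested genes, and the median log2 fold change was -0.38 over the 10 genes and -0.03 over all genes. The comparison shares its parental libraries with that of Cal27 AfaR, so the 2 sets of values are not independent. Other markers moved in Cal27 ErlR too, with the endothelial sum at 2.56 to 6.17 CPM against 31.7 to 32.7 CPM in parental cells (CDH5 at means of 2.62 and 30.5 CPM) and the fibroblast sum at 4.28 to 9.65 against 29.0 to 40.0 CPM. Their part in the changes of the 10 genes was not tested.

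STAT5A was at 29.9 and 27.2 CPM in Cal27 parental and at 8.88 and 9.41 CPM in Cal27 ErlR, 3.18-fold lower (SE 0.17 on the log2 scale, adjusted p = 0.000235, log2 fold change -1.73 to -1.58 over the alternatives). STAT5B, on the same stretch of chromosome 17, was at 44.4 and 45.8 CPM before and 46.5 and 47.2 CPM after selection (log2 fold change 0.03, adjusted p = 0.883). The ratio of STAT5A to STAT5B per length accordingly went down from 0.755 and 0.667 to 0.214 and 0.223, within the 0.165 to 0.388 of the 6 FaDu libraries, while Cal27 AfaR lay between at 0.482 and 0.450. STAT3, on the other side of STAT5A, was at 284 and 295 CPM in parental and 211 and 211 CPM in ErlR cells (log2 fold change -0.48, SE 0.13, adjusted p = 0.0256). This call was lost without either parental or either ErlR replicate, at adjusted p-values of 0.0820 to 0.151. STAT6 fell from 189 and 197 to 133 and 116 CPM (log2 fold change -0.65, SE 0.13, adjusted p = 0.00720) and narrowly missed the threshold without parental replicate 2 (0.0509) or ErlR replicate 2 (0.0522).

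The fall of JAK1 in Cal27 ErlR passed under every alternative fit, whereas its rise in Cal27 AfaR was narrow and was lost under most of them. The 2 resistant Cal27 groups were not tested against each other. In Cal27 ErlR, JAK1 fell to 83.1 and 78.5 CPM, from 127 and 139 CPM in parental cells (log2 fold change -0.75, SE 0.12, adjusted p = 0.00259). These were the lowest JAK1 levels of all 12 libraries. TYK2 (ENSG00000105397, chr19:10350529-10380676), the kinase that pairs with JAK1 on interferon and gp130 receptors, was at 57.0 and 48.6 CPM in Cal27 ErlR and at 46.8 and 40.7 CPM in parental cells (log2 fold change 0.25, adjusted p = 0.224), and it passed in no comparison.

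The receptor chains went apart in Cal27 ErlR. IL6ST was at 207 and 169 CPM, above both parental libraries (log2 fold change 0.59, SE 0.15, adjusted p = 0.0174), and this call was lost without parental replicate 1 (adjusted p = 0.105) or ErlR replicate 1 (0.1202). OSMR fell to 140 and 109 CPM (log2 fold change -0.85, SE 0.24, adjusted p = 0.0268), a call lost without parental replicate 2 (-0.61, adjusted p = 0.145) or ErlR replicate 2 (-0.64, adjusted p = 0.1205). Their ratio per length, which needs no scaling between libraries, was 1.14 and 1.20, above the 0.458 and 0.410 of the parental cells. Neither SOCS gene passed. SOCS2 was at 18.7 and 20.4 CPM (log2 fold change -0.27, adjusted p = 0.348), and the SOCS3 libraries, at 37.2 and 69.3 CPM, enclosed both parental ones.

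**Figure D3:**
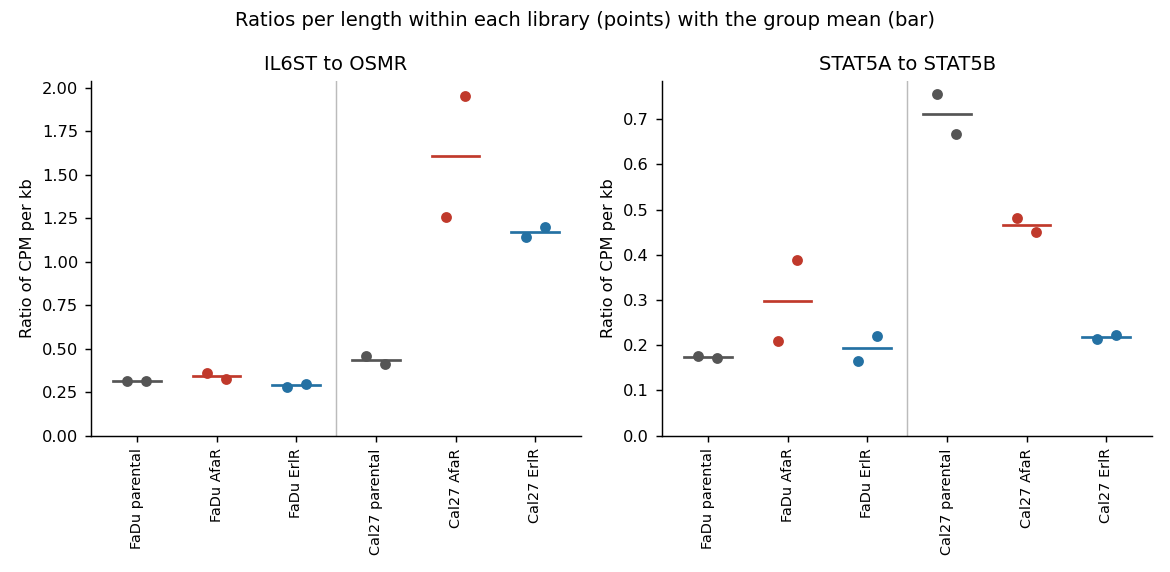
Ratio of CPM per kb of IL6ST to OSMR (left) and of STAT5A to STAT5B (right) in each library (points) with the group means (bars), on linear axes from 0. The IL6ST to OSMR ratio is above 1.14 in the 4 resistant Cal27 libraries and under 0.459 in the other 8, and the STAT5A to STAT5B ratio of Cal27 ErlR (0.214 and 0.223) lies in the range of the FaDu libraries.

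In FaDu AfaR, SOCS2 was the only one of the 10 genes that passed, so that 0 of the 10 were higher and 1 was lower, where 10.4% of all tested genes were higher and 7.49% lower. With the limit on fold change 0 passed, against 7.43% of all tested genes. The median log2 fold change was 0.20 over the 10 genes, 8 of them positive, and 0.00 over all genes. SOCS2 went from 50.2 and 47.8 to 29.1 and 25.3 CPM, 1.83-fold lower (log2 fold change -0.87, SE 0.14, adjusted p = 0.00613), without overlap between the groups. Without parental replicate 1 the value was -0.84 and no longer passed, in a fit that called far fewer genes over the whole table. IL6ST was at 35.3 and 36.6 CPM in parental and at 45.3 and 50.6 CPM in AfaR cells, which lie apart, and just missed the threshold (log2 fold change 0.40, SE 0.12, adjusted p = 0.0515). It passed with upper-quartile scaling (0.47, adjusted p = 0.0313), with at least 10 counts required in every library (0.43, adjusted p = 0.0404) and with spike-in scaling (0.58, adjusted p = 0.0288). JAK1 did the same with upper-quartile scaling (0.37, adjusted p = 0.0489) and spike-in scaling (0.48, adjusted p = 0.0356), against 0.30 and 0.0906. At an unadjusted p under 0.05, 5 of the 10 genes passed in FaDu AfaR (SOCS2, IL6ST, JAK1, OSMR and STAT5A). The share of all tested genes at that threshold was not determined, so this count has no background beside it. DESeq2 called 1 of the 10 genes, and 2614 genes over the whole table. STAT5A was at 4.47 and 3.64 CPM in parental and at 5.09 and 8.72 CPM in AfaR libraries, which do not overlap, and its log2 fold change of 0.75 (SE 0.33, adjusted p = 0.138) was close in size to its called fall in Cal27 AfaR.

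In FaDu ErlR 0 of the 10 genes passed with edgeR or with DESeq2, where edgeR called 2.58% of all tested genes higher, 1.6% lower and 2.05% past the limit on fold change. At an unadjusted p under 0.05 there were 3 genes, STAT5B (log2 fold change -0.38), STAT6 (0.39) and SOCS3 (-0.49), with adjusted p-values of 0.193, 0.215 and 0.194. The share of all tested genes at that threshold was not determined here either. The median log2 fold change was 0.02 over the 10 genes and 0.00 over all genes. The simulation with 200 genes changed by 2 on the log2 scale recovered 93.5% of them in this comparison, but smaller changes were not simulated. With spike-in scaling 6 genes passed as higher (JAK1, TYK2, STAT3, STAT6, OSMR and IL6ST), together with 5543 genes over the whole table, and TYK2, STAT5A (0.25), STAT5B (0.09) and SOCS2 (0.24) turned from negative to positive values, with the median of all genes moved as given above.

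The difference between the lines was tested as an interaction, the log2 fold change in FaDu minus that in Cal27. For afatinib, 4 genes had a higher value in FaDu (10.5% of all tested genes did) and 1 a lower value (8% of all). SOCS2 differed most, by 2.30 (SE 0.26, adjusted p = 0.000104), since it fell in both lines but further in Cal27. IL6ST differed by -1.26 (SE 0.18, adjusted p = 0.000582), so its rise was larger in Cal27. STAT5A (1.51, SE 0.35, adjusted p = 0.0109), SOCS3 (1.22, SE 0.38, adjusted p = 0.0439) and STAT6 (0.85, SE 0.23, adjusted p = 0.0211) had fallen in Cal27 and had positive values in FaDu that did not pass. The STAT5A difference missed the threshold without FaDu parental replicate 2 (1.37, adjusted p = 0.0511), that of STAT6 without replicate 2 of any of the 4 groups (0.65 to 0.82, adjusted p = 0.0542 to 0.101), and that of SOCS3 without 1 of 8 libraries (0.95 to 1.40, adjusted p = 0.0515 to 0.161), 2 of them FaDu ErlR libraries that enter only the shared fit. The SOCS3 difference was also lost with at least 10 counts required in every library (1.20, adjusted p = 0.0504). The JAK1 values, 0.30 in FaDu and 0.35 in Cal27, differed by -0.04 (SE 0.16, adjusted p = 0.909), and by 0.14 with spike-in scaling.

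For erlotinib, 5 genes had a higher value in FaDu and 0 a lower one, where 9.8% of all tested genes were higher and 8.8% lower. DESeq2 also called 5 of the 10 genes, and 3135 genes over the whole table. With edgeR, 7 of the 10 genes had an unadjusted p under 0.05, and the share of all genes at that threshold was not determined. The 5 differences that passed with edgeR were 1.44 for STAT5A (SE 0.37, adjusted p = 0.0192), 1.06 for OSMR (SE 0.29, adjusted p = 0.0261), 1.03 for STAT6 (SE 0.23, adjusted p = 0.00876), 0.84 for JAK1 (SE 0.16, adjusted p = 0.00357) and 0.52 for STAT3 (SE 0.16, adjusted p = 0.0406). All 5 of these genes fell in Cal27 ErlR. The JAK1 and STAT6 differences held under every alternative fit, while those of STAT5A (1.12 to 1.42, without FaDu parental replicate 2, FaDu ErlR replicate 2 or Cal27 ErlR replicate 1), OSMR (0.83 to 1.09, without any 1 of the FaDu parental or ErlR libraries or replicate 2 of Cal27 parental or ErlR) and STAT3 (0.43 to 0.56, without any 1 of 7 of the 8 libraries compared) no longer passed. The STAT3 difference was also lost without a filter on low counts (0.50, adjusted p = 0.0848) and with a replicate block (0.52, adjusted p = 0.0691). The interaction for IL6ST was -0.50 (SE 0.18, adjusted p = 0.0793) and passed without Cal27 ErlR replicate 2 (-0.64, adjusted p = 0.0407).

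The other genes of the pathway were taken from 6 lists of 75 genes in all. In Cal27 AfaR, 19 of the 67 tested genes were higher and 12 lower (19.5% and 18.2% of all tested genes), with a median log2 fold change of 0.14. Of the 6 tested partners of gp130 in its receptor family, 3 rose and 1 fell. LIFR, which joins gp130 for leukemia inhibitory factor, rose from 10.5 and 14.0 to 52.1 and 46.4 CPM (log2 fold change 2.01, SE 0.18, adjusted p = 5.03e-05). IL6R, which captures interleukin-6 for gp130, fell from 36.1 and 32.5 to 8.53 and 7.72 CPM (log2 fold change -2.07, SE 0.18, adjusted p = 4.38e-05). The ligand IL6 itself was at 28.0 and 47.4 CPM in parental and at 211 and 215 CPM in AfaR cells (log2 fold change 2.499, SE 0.43, adjusted p = 0.00189). For these 3 genes the AfaR libraries do not overlap the parental ones. In Cal27 ErlR the IL6 (11.2 and 36.1 CPM) and LIFR (11.2 and 10.5 CPM) libraries do. LEPR, the leptin receptor, rose by a log2 fold change of 2.01 (adjusted p = 0.00221).

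Of 19 tested STAT3 and STAT5 targets, 5 were higher and 5 lower in each Cal27 model, where 19.5% of all tested genes were higher and 18.2% lower in AfaR and 12.3% and 15.3% in ErlR. TIMP1, an inhibitor of matrix metalloproteinases, rose in Cal27 AfaR (log2 fold change 1.96, adjusted p = 2.24e-05) and in Cal27 ErlR (1.28, adjusted p = 0.000600). LCN2, an iron-binding protein of inflamed epithelium, fell in both, by a log2 fold change of -4.74 (adjusted p = 0.000539) and -4.71 (adjusted p = 0.00117), from parental levels of 544 and 1437 CPM that differ much between the libraries. In Cal27 AfaR, the growth regulator MYC (-2.08, adjusted p = 1.61e-05) and JUNB (-1.35, adjusted p = 0.00329) fell as well, and in Cal27 ErlR ICAM1 (-2.04, adjusted p = 5.50e-05) and CEBPD (-1.18, adjusted p = 0.0347) fell while BCL2L1 (1.19, adjusted p = 0.00266) and CCND1 (1.01, adjusted p = 0.0117) rose. Over all lists, 11 of 67 tested genes were higher and 15 lower in Cal27 ErlR (12.3% and 15.3% of all tested genes). Of the 15 other cytokine receptors 5 passed there, all lower, with IL20RB at a log2 fold change of -1.98 (adjusted p = 0.000404).

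**Figure D4:**
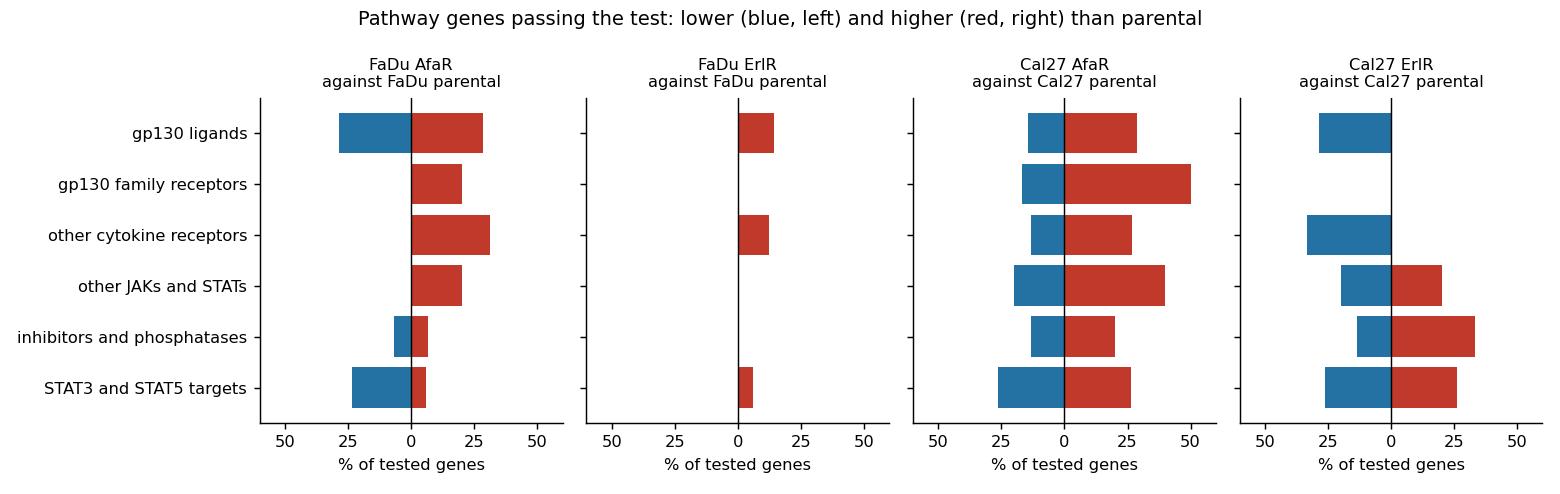
Share of the tested genes of each pathway list that were lower (blue, left) or higher (red, right) than in parental cells, in percent, for each resistant group; the lists hold 5 to 19 tested genes each. Cal27 AfaR has 3 of 6 gp130 family receptors higher, and in FaDu ErlR 4 of 65 genes passed, all higher.

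In FaDu AfaR, 11 of the 65 tested pathway genes were higher and 7 lower (10.4% and 7.49% of all tested genes). IL7R rose by a log2 fold change of 1.76 (adjusted p = 0.00142) and IL6R by 1.22 (adjusted p = 0.0105), while the gp130 ligands CLCF1 (-1.73, adjusted p = 0.00502) and LIF (-1.31, adjusted p = 0.0340) and the target JUNB (-1.30, adjusted p = 0.0128) fell. IL6R thus rose in FaDu AfaR and fell in Cal27 AfaR, and the interaction was 3.32 (SE 0.32, adjusted p = 2.38e-05). In FaDu ErlR, 4 of 65 passed, all higher (2.58% of all tested genes were higher and 1.6% lower), among them IL7R (1.11, adjusted p = 0.0194) and LCN2 (1.52, adjusted p = 0.0233). Between the parental lines 24 of 68 were higher in Cal27 and 13 lower (28.7% and 26.8% of all tested genes), with IL6 (6.93, adjusted p = 3.79e-06), LCN2 (5.59, adjusted p = 1.13e-05), IL20RB (3.69, adjusted p = 2.07e-07) and LIF (3.54, adjusted p = 1.65e-06) at the head and LIFR (-1.59, adjusted p = 1.36e-05), CCND1 (-1.78, adjusted p = 2.38e-05) and PIM2 (-1.37, adjusted p = 0.000139) lower. The FaDu parental level of IL6 was 0.194 and 0.416 CPM, so its fold change rests on few reads.

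Genes next to the 4 members with a called log2 fold change over 1 were read off the chromosome, 3 tested genes on each side. STAT5A fell in Cal27 ErlR between STAT5B, which did not pass, and STAT3, and CAVIN1, which follows STAT3, was higher in Cal27 AfaR (log2 fold change 1.43, adjusted p = 0.000327) and in Cal27 ErlR (1.08, adjusted p = 0.00248). Beside IL6ST lies IL31RA, another receptor of the same family, which rose in Cal27 AfaR (log2 fold change 1.64, adjusted p = 0.00366) from 2.68 and 2.74 to 7.94 and 8.94 CPM but not in Cal27 ErlR (0.10, adjusted p = 0.853). PLPP1, on the same side of IL6ST, was also higher in Cal27 AfaR (0.61, adjusted p = 0.0349). SLC38A9 (0.24, adjusted p = 0.299) and RPL26P19 (-0.86, adjusted p = 0.155) did not pass there. IL6ST-DT, named as a divergent transcript of IL6ST, did not pass in Cal27 AfaR (0.32, adjusted p = 0.745). Around SOCS2, MRPL42 was lower (-0.59, adjusted p = 0.00466) and PLXNC1 higher (1.43, adjusted p = 0.00628) in Cal27 AfaR. Around SOCS3, AFMID was lower (-1.0025, adjusted p = 0.00226) and PGS1 did not pass (-0.07, adjusted p = 0.744) in Cal27 AfaR. In Cal27 ErlR, where SOCS3 did not pass, AFMID was lower (-0.70, adjusted p = 0.0185) and BIRC5 higher (0.94, adjusted p = 0.00744).

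Over the 6 group means of log2 CPM, each centred on its own mean, the genes most like these 4 among 10572 genes were found by root mean square difference. EFEMP1 (0.12) and IKBKE (0.17) were nearest to STAT5A, and EFEMP1 went from a mean of 312 CPM in Cal27 parental to 215 CPM in AfaR and 112 CPM in ErlR. CAVIN3 (0.13) and ZBTB38 (0.20) were nearest to IL6ST, with CAVIN3 at means of 11.1, 42.5 and 19.8 CPM in Cal27 parental, AfaR and ErlR. ARHGAP8 (0.19) and PCDH1 (0.21) were nearest to SOCS2, and PCDH1 fell from a mean of 32.7 to 4.20 CPM in Cal27 AfaR. NOD1 (0.09) and PPP1R3D (0.12) were nearest to SOCS3.

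Ordered over the 6 groups by mean level, only some steps separate neighbouring groups. IL6ST had no overlap between libraries at any of its 5 steps, from 36.0 CPM in FaDu parental through FaDu ErlR, FaDu AfaR, Cal27 parental and Cal27 ErlR to 389.8 CPM in Cal27 AfaR. STAT5A ran from 3.53 CPM in FaDu ErlR to 28.6 CPM in Cal27 parental, and its FaDu ErlR and FaDu parental libraries overlapped. SOCS2 ran the other way, from 2.62 CPM in Cal27 AfaR to 49.0 CPM in FaDu parental, with overlap between Cal27 parental and FaDu AfaR. For STAT6 the groups overlapped at every step below Cal27 parental (193 CPM), which stood apart. TYK2 libraries overlapped at 4 of the 5 steps, over means of 43.7 to 55.9 CPM.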

How the data were processed

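Poly(A) RNA of 12 samples was sequenced with paired-end reads. Per the labels and the submitters' processing notes, the authors trimmed reads with Trimmomatic 0.36, aligned them to GRCh38 with STAR 2.5.2b and counted them per gene with featureCounts of Subread 1.5.2. The deposited files used here hold these raw read counts for 58051 genes and 92 ERCC spike-ins, and the authors' deposited normalized tables were not used. The strand setting of the counting is not given in the sources used here.

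Groups came from the labels. Counts were fitted with edgeR 4.0.16 in R 4.3.3 (filterByExpr, TMM, quasi-likelihood F test). Fits were made per line for resistant against parental cells (15092 genes in FaDu, 15269 in Cal27). The parental lines and the interactions were fitted over all 12 libraries (16240 genes). Spike-ins stayed out of library sizes and tests. P-values were adjusted by Benjamini-Hochberg over all genes tested and measure the spread between 2 replicates per group. On simulated counts with 200 genes changed by 2 on the log2 scale, the fits recovered 94% (FaDu AfaR), 93.5% (FaDu ErlR), 93.5% (Cal27 AfaR), 95.5% (Cal27 ErlR), 91.5% (parental lines), 88% (afatinib interaction) and 81.5% (erlotinib interaction), with 0 called in the wrong direction. Of the genes left unchanged, 12 to 19 were called per comparison.

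Alternatives were DESeq2 1.42.0, the replicate number as a block, other filters, upper-quartile and spike-in scaling, other sets of libraries in the fit, other thresholds and leaving out each library. The other thresholds were applied only to the number of genes passing, and single genes were followed under the alternative fits. Members and lists were chosen with earlier results of these data known. Besides the 10 members, the text names pathway genes that passed with a log2 fold change over 1 in size and a mean of at least 5 CPM (the 4 largest rises and falls per comparison), and, for members with such a change in a resistant group, the 3 tested genes on each side and the 2 genes with the most similar group means (pseudocount 0.5). Tables were handled with pandas 2.3.3 and numpy 2.4.6.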

Additional observations from a re-analysis of the deposited data

Results flagged for a closer look

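The response to selection differed between FaDu and Cal27 by the interaction test in 10 cases, each given as the log2 fold change in FaDu minus that in Cal27. For afatinib these were SOCS2 (2.30, adjusted p = 0.000104), STAT5A (1.51, adjusted p = 0.0109), SOCS3 (1.22, adjusted p = 0.0439), STAT6 (0.85, adjusted p = 0.0211) and IL6ST (-1.26, adjusted p = 0.000582), from edgeR with Benjamini-Hochberg adjustment. For erlotinib they were STAT5A (1.44, adjusted p = 0.0192), OSMR (1.06, adjusted p = 0.0261), STAT6 (1.03, adjusted p = 0.00876), JAK1 (0.84, adjusted p = 0.00357) and STAT3 (0.52, adjusted p = 0.0406). Each resistant group is 1 selected population, so a difference between lines and a difference between populations cannot be told apart. STAT5A and STAT6 appear for both drugs, and those values share the parental libraries.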

How the results depend on the processing

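Of 70 tests of the 10 genes, 31 passed, 18 of them under every alternative fit and 13 not under at least 1. Of the 31, 0 changed sign. The limit on fold change is not counted among these fits. The number of the 10 genes passing in FaDu AfaR (1) became 2 with at least 10 counts in every library, 3 with upper-quartile scaling and 3 with spike-in scaling. These settings called 2339, 2442 and 2319 genes over the whole table. At an unadjusted p under 0.05, where the share of all genes was not determined, the number was 5 in FaDu AfaR and 3 in FaDu ErlR. It was 0 in FaDu AfaR with the limit on fold change, and it changed there without parental replicate 1 or AfaR replicate 1. In FaDu ErlR (0) it became 6 with spike-in scaling, beside 5543 genes over the whole table. With the limit on fold change it was 3 in Cal27 AfaR (6), 1 in Cal27 ErlR (6), 5 between the parental lines (8) and 3 in the erlotinib interaction (5). Leaving out a library also changed the number in Cal27 ErlR and in both interactions. It was lowest in Cal27 ErlR without replicate 2 of parental or ErlR. In the afatinib interaction it was lowest without replicate 2 of any of its groups. In the erlotinib interaction it was lowest without replicate 2 of FaDu parental or FaDu ErlR. Each of these fits also called fewer genes over the whole table than the reported fit. Where this left a group with 1 library, that library was assumed to vary like the others, and the number of all genes called changed too. The cause of these changes was not tested.

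Some values that did not pass in the reported fit changed sign. STAT5B in FaDu AfaR (-0.01) came to 0.018 with at least 10 counts, 0.060 with upper-quartile scaling, 0.17 with spike-in scaling, 0.0011 with only the compared libraries, 0.0056 with all 12 and up to 0.12 with a library left out. With spike-in scaling TYK2 (0.46), STAT5A (0.25), STAT5B (0.095) and SOCS2 (0.24) turned positive in FaDu ErlR, TYK2 there and between the parental lines then passing, as did TYK2 between the parental lines (0.46), JAK1 and TYK2 in the afatinib interaction (0.14 each), and TYK2 (0.18), STAT5B (0.034) and SOCS3 (0.046) in the erlotinib interaction. STAT5B in Cal27 ErlR came to -0.0026 with at least 10 counts and -0.030 with upper-quartile scaling.
With a library left out, values crossed 0 over these ranges. In FaDu AfaR these were STAT5B -0.14 to 0.12, STAT6 -0.17 to 0.24, SOCS3 -0.078 to 0.51. In FaDu ErlR these were TYK2 -0.054 to 0.019, STAT3 -0.032 to 0.14, STAT5A -0.54 to 0.055. In Cal27 AfaR it was OSMR -0.53 to 0.16. In Cal27 ErlR it was SOCS3 -0.56 to 0.31. Between the parental lines it was JAK1 -0.0046 to 0.13. In the afatinib interaction these were JAK1 -0.10 to 0.035, TYK2 -0.13 to 0.069. In the erlotinib interaction these were SOCS2 -0.13 to 0.18, SOCS3 -0.79 to 0.083.

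With a replicate block the counts were 1 for AfaR and 0 for ErlR in FaDu, 5 for AfaR (JAK1 lost) and 6 for ErlR in Cal27, 8 between the parental lines, and 5 and 4 (STAT3 lost) in the interactions. Over the whole table, in the same order, this setting called 2344, 438, 5238, 3693, 7684, 2570 and 2572 genes. The labels name no culture or day shared by samples of the same replicate number. Correlations of same-numbered deviations between groups of a line were -0.173 to 0.105. With 1 replicate difference per group, they cannot show whether such samples were handled together. With 16334937 to 23399259 counts per library, STAT5A in FaDu ErlR rested on 44 and 65 reads and SOCS2 in Cal27 AfaR on 39 and 54.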
